A study of Mus musculus with 4 samples.

Results

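A set of 10 genes of protein folding and stress signalling in the endoplasmic reticulum (ER) was followed in mouse kidney after obstruction of the bile duct: Hspa5, Hsp90b1, Pdia4, Sdf2l1, Dnajb9, Dnajc3, Herpud1, Xbp1, Atf4 and Ddit3. The genes were chosen by name, and every array probe whose RefSeq accession belonged to 1 of them was taken, which gave 12 probes of the 55668 analysed (10 genes of 20656 with a symbol). Atf4 and Dnajb9 had 2 probes each. Total RNA was taken from kidneys 2 weeks after bile duct ligation (BDL), in which the common bile duct is tied off as a model of cholestasis, or after a sham operation, with 2 replicates that the series calls biological in each group. Each RNA was hybridised alone with Cy3 on a 1-colour Agilent array. The strain, sex and age of the mice are not given in the sources used here, and no group carries a named allele or drug.

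The ER folds membrane and secreted proteins with the help of chaperones, of which BiP, the product of Hspa5, is the central one. When unfolded proteins accumulate, the sensors IRE1, PERK and ATF6 start the unfolded protein response (UPR): IRE1 splices Xbp1 mRNA, PERK slows translation and favours ATF4, and cleaved ATF6 enters the nucleus. Together they raise chaperone and degradation genes, and prolonged PERK and ATF4 signalling raises CHOP, the product of Ddit3, which promotes cell death. In the kidney, the proximal tubule and other epithelia carry a high load of membrane protein synthesis, and the pathway is known to respond to toxic and ischaemic injury. An array reads mRNA level alone, so eIF2 alpha phosphorylation, ATF6 cleavage and ATF4 translation were not measured, and spliced and unspliced Xbp1 were not separated.

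ATF6 and XBP1 reach their targets through short promoter elements, and the stretches below show which of these genes carry one close to the start of transcription. The windows come from RefSeq (GRCm38.p6), 250 bases before to 50 bases after each annotated start, and all 10 genes had one. Searched on both strands were the ER stress response element ERSE (CCAAT, 9 bases of any kind, CCACG), ERSE-II (ATTGG, 1 base of any kind, CCACG), the UPR element core TGACGTGG, the element of ATF4 with C/EBP factors TGATGNAAT, and CCACG alone, which lies inside both ERSE forms and, read on the other strand, overlaps the UPR element core. Capitals mark ERSE or ERSE-II in the first 4 stretches and CCACG, read as CGTGG on the printed strand, in that of Sdf2l1. Each is printed 5′ to 3′ on the strand of its gene.
Hspa5, chr2:34772015-34772053, plus strand: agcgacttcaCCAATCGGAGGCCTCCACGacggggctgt
Hsp90b1, chr10:86705523-86705666, minus strand: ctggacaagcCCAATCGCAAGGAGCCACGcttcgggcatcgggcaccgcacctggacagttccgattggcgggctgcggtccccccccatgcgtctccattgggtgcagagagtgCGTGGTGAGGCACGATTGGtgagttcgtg
Dnajc3, chr14:118937817-118937855, plus strand: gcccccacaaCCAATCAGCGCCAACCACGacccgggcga
Herpud1, chr8:94386367-94386397, plus strand: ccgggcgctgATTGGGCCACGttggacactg
Sdf2l1, chr16:17132386-17132600, minus strand: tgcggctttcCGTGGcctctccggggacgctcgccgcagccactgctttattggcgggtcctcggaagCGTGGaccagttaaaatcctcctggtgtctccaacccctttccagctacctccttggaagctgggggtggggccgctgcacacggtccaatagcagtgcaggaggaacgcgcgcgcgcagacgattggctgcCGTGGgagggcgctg

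ERSE was found in 3 of the 10 windows, against 0.119% (39 of 32851) of all windows of this length. In Hspa5 it spans 65 to 47 bases before the start, in Dnajc3 105 to 87 bases, and in Hsp90b1 there are 2, at 212 to 194 and, on the opposite strand, at 107 to 89 bases. ERSE-II was found in Herpud1 alone among these genes, 52 to 42 bases before the start, against 0.0365% (12) of all windows. CCACG was found in 8 of the 10 windows, against 32.8% of all. The UPR element core (0.676% of all windows) and the ATF4 element (0.965%) were in 0 of the 10 windows. Bases outside the windows were not searched. A match is a description of these letters and not a shown binding site.

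The 12 probes were well above background on all 4 arrays. Values below are log2 of the signal over the array's own 75th percentile, and differences are BDL minus sham. A 95% interval of a difference comes from limma's moderated fit over 32283 retained probes and is not adjusted for their number. Adjusted p-values are adjusted over all of these probes by Benjamini-Hochberg. No probe on the array passed an adjusted p of 0.05 (0 of 32283, 0%, while 1823 probes, or 5.65%, had an unadjusted p under 0.05), and so none of the 12 passed. Per array, 57.7% to 63.1% of spots were well above background, and saturation was seen in 0. The 12 kidney epithelial markers, from Umod to Slc34a1, were well above background on all 4 arrays. Sham replicate 1 stood apart in the summed signal of 14 measured interferon response genes. This sum was 46.7 times that array's 75th percentile, against 9 to 14.8 on the other arrays. All of these genes but Rsad2 and Ifi44 were highest on that array. Rsad2 was 1.79 in BDL replicate 1 against 1.32 there, and Ifi44 was 0.45 in sham replicate 2 against 0.02. BDL replicate 1 stood apart in 7 adipocyte genes (summed signal of 187, against 14.2 to 29.7) and in 9 urothelial genes (77.9, against 7.87 to 15.8). Their part in the results was not tested, and each result is also given without these arrays where that turns it. In bulk tissue, fewer cells of a type and less RNA per cell cannot be told apart.

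**Figure D1:**
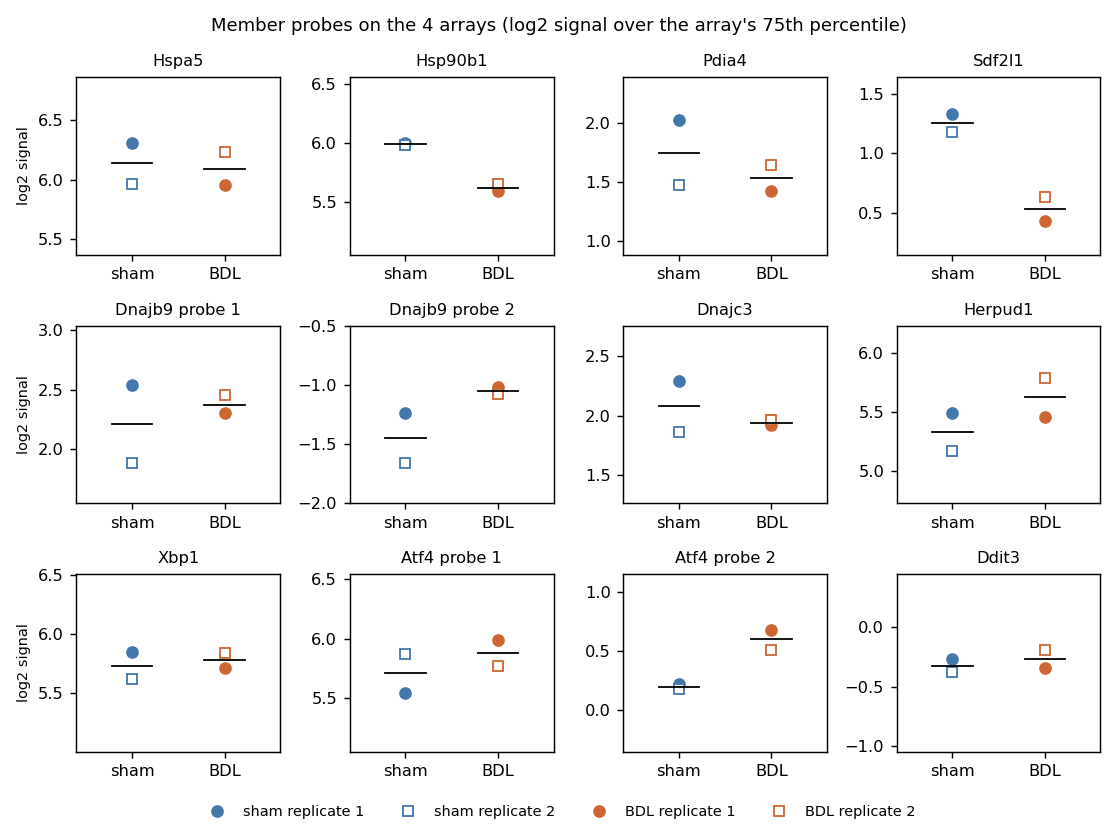
Log2 signal over the 75th percentile of the array (y axis, each panel spanning the same range of 1.5) for the 12 probes in 2 sham and 2 BDL kidneys. Points are single arrays and black bars are group means. The groups stand apart with little spread for Hsp90b1, Sdf2l1 and the second Atf4 probe, while the sham points of Dnajb9 probe 1 lie 0.66 apart and enclose both BDL points.

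None of the lumenal chaperones passed the test. Sdf2l1 and Hsp90b1 were lower in BDL kidneys without overlap between the groups, Hspa5 and Dnajc3 had close to the same mean level in both, and the groups of Pdia4 overlapped. Sdf2l1, a stress-induced partner of ER J-domain cochaperones, was 1.33 and 1.18 in sham replicates 1 and 2 and 0.43 and 0.63 in BDL replicates 1 and 2. Both BDL kidneys were thus below both sham kidneys, by more than either group's own spread. The means were 1.26 ± 0.11 in sham and 0.53 ± 0.14 in BDL (SD, n = 2). The difference of -0.73 (SE 0.21), or 1.65-fold lower, had an interval from -1.27 to -0.18 and the smallest unadjusted limma p of the 12 probes, 0.0194, but an adjusted p of 0.857. It was the 1 probe of the 12 with an unadjusted p under 0.05, lower in BDL, against 2.94% of all retained probes. With 1 array left out it stayed between -0.83 and -0.63.

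Hsp90b1 encodes GRP94, the HSP90 of the ER and a folding factor for integrins and Toll-like receptors. It was 6.0 and 5.98 in the sham kidneys and 5.59 and 5.65 in the BDL kidneys. The sham arrays lay 0.02 apart and the BDL arrays 0.06 apart, and the groups did not overlap. The difference was -0.37 (SE 0.19), or 1.29-fold lower in BDL, with an interval from -0.87 to 0.14 (limma adjusted p = 0.867). Leaving out any 1 array gave -0.40 to -0.34. Groups that did not overlap, lower in BDL, were seen in 18.5% of all retained probes, and in these 2 of the 12.

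Hspa5, the BiP gene and the usual readout of ER stress, was 6.31 and 5.96 in the sham kidneys and 5.95 and 6.23 in the BDL kidneys. Its groups overlapped fully, with sham replicate 1 and BDL replicate 2 high and the other two low. The difference was -0.04 (SE 0.24, limma adjusted p = 0.98), and its interval ran from 0.625-fold to 1.51-fold, so that an induction of 2-fold lay outside it. The sign was not stable, with 0.13 without sham replicate 1, 0.10 without BDL replicate 1 and -0.22 without sham replicate 2. The genes closest to Hspa5 in their centred values over the 4 arrays, among 106 other genes of the fixed ER lists, were Srprb, which anchors the signal recognition particle receptor, Sar1b, a GTPase of the COPII coat, and Hspa13, with summed absolute differences of 0.21, 0.24 and 0.25 on the log2 scale.

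Pdia4 encodes ERp72, a disulfide isomerase. It was 2.02 in sham replicate 1, and the other 3 arrays lay between 1.42 and 1.64, with sham replicate 2 at 1.47. This gave -0.22 (SE 0.27, limma adjusted p = 0.913) and turned to 0.06 without sham replicate 1. Dnajc3, which encodes p58IPK, a lumenal J-domain cochaperone of BiP, was 2.29 and 1.86 in sham and 1.92 and 1.96 in BDL kidneys. Again sham replicate 1 alone was high. The difference of -0.14 (SE 0.24, limma adjusted p = 0.934) turned to 0.08 without that array.

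Dnajb9 encodes ERdj4, a J-domain protein that is induced through XBP1 and restrains IRE1. Its brighter probe was 2.54 and 1.88 in sham and 2.30 and 2.45 in BDL kidneys, so that the sham arrays enclosed both BDL arrays. The dimmer probe was -1.24 and -1.66 in sham and -1.02 and -1.08 in BDL kidneys, with no overlap. The probes gave 0.16 (SE 0.29, limma adjusted p = 0.937) and 0.40 (SE 0.24, limma adjusted p = 0.868). The brighter probe turned to -0.17 without sham replicate 2, which was the lowest array on both probes, and the dimmer one was 0.19 without it. For the dimmer probe the sham gap of 0.42 exceeded the difference.

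Herpud1 is a membrane component of ER-associated degradation, the route that returns misfolded proteins to the proteasome. It was 5.49 and 5.17 in sham and 5.46 and 5.79 in BDL kidneys. BDL replicate 2 was the highest, and BDL replicate 1 lay between the sham arrays. BDL minus sham came to 0.30 (SE 0.24, limma adjusted p = 0.885), its interval ran from 0.788-fold to 1.92-fold, and it was 0.13 without BDL replicate 2.

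**Figure D2:**
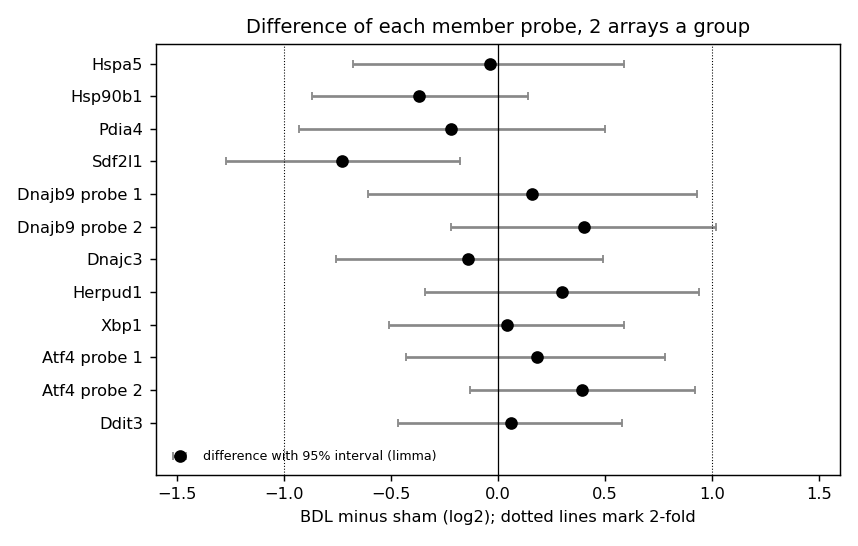
BDL minus sham (log2, x axis) for each probe, with the 95% interval from limma, not adjusted for the number of probes, 2 arrays per group. The interval of Sdf2l1, from -1.27 to -0.18, is the one that leaves out 0, and 10 of the 12 intervals lie within 2-fold either way.

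Among the transcription factors, Atf4 had a higher mean in BDL on both of its probes, while the means of Xbp1 and Ddit3 differed by 0.04 and 0.06. Atf4 encodes the factor that PERK and other eIF2 alpha kinases favour. Its dimmer probe was 0.22 and 0.18 in sham and 0.68 and 0.51 in BDL kidneys, with both BDL arrays above both sham arrays. The difference was 0.39 (SE 0.20), or 1.31-fold, with an interval from -0.13 to 0.92 (limma adjusted p = 0.867). The brighter probe was 5.54 and 5.87 in sham and 5.99 and 5.77 in BDL kidneys, where sham replicate 2 lay above BDL replicate 2. It gave 0.18 (SE 0.23, limma adjusted p = 0.918) and 0.02 without sham replicate 1, its lowest array. Groups that did not overlap, higher in BDL, were seen in 18.2% of all retained probes, and among the 12 in the dimmer probes of Atf4 and Dnajb9.

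Xbp1, whose spliced mRNA encodes the factor of the IRE1 branch, was 5.85 and 5.62 in sham and 5.71 and 5.84 in BDL kidneys. The values interleaved, and the groups differed by 0.04 (SE 0.21, limma adjusted p = 0.978), the interval running from 0.703-fold to 1.51-fold. Ddit3, the CHOP gene, was -0.27 and -0.38 in sham and -0.34 and -0.19 in BDL kidneys. It differed by 0.06 (SE 0.20, limma adjusted p = 0.97), with an interval from 0.723-fold to 1.5-fold. Both signs depended on the array left out, from -0.07 to 0.16 for Xbp1 and from -0.02 to 0.13 for Ddit3.

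Set side by side, the 12 probes ranged from -0.73 to 0.40, 5 below 0 and 7 above, against 50.1% below 0 among all retained probes. All differences were under 2-fold, where 4.48% of all retained probes differed by more than that. Of the 12 intervals, 10 lay within 2-fold either way, against 58.6% of those of all retained probes. The difference exceeded both within-group gaps in 3 of the 12 (Sdf2l1, Hsp90b1 and the dimmer Atf4 probe), against 23.1% of all retained probes. With the brightest probe of each gene, the median difference was 0, as over all 15023 genes, with 5 genes below 0 (50.3% of all genes). It moved to 0.09 when sham replicate 1 was left out and to -0.19 when sham replicate 2 was, where all genes gave 0.01 and -0.02. The ERSE carriers Hspa5, Hsp90b1 and Dnajc3 differed by -0.04, -0.37 and -0.14, and Herpud1, with ERSE-II, by 0.30.

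Sham replicate 1 was the highest of the 4 arrays in 7 of the 12 probes, among them those of Hspa5, Dnajc3, Pdia4 and Sdf2l1, and sham replicate 2 in 0. Over all retained probes these shares were 34.1% and 21.6%. Among the 7 the margin was small for Xbp1, at 5.85 against 5.84 in BDL replicate 2. It was also small for Hsp90b1, at 6.0 against 5.98 in sham replicate 2. Without sham replicate 1, 2 of the 12 probes were below 0, and without sham replicate 2, 7 were. The 2 that stayed below 0 were Sdf2l1 (-0.65) and Hsp90b1 (-0.36). The same array was also the one where most of the interferon response genes were highest.

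**Figure D3:**
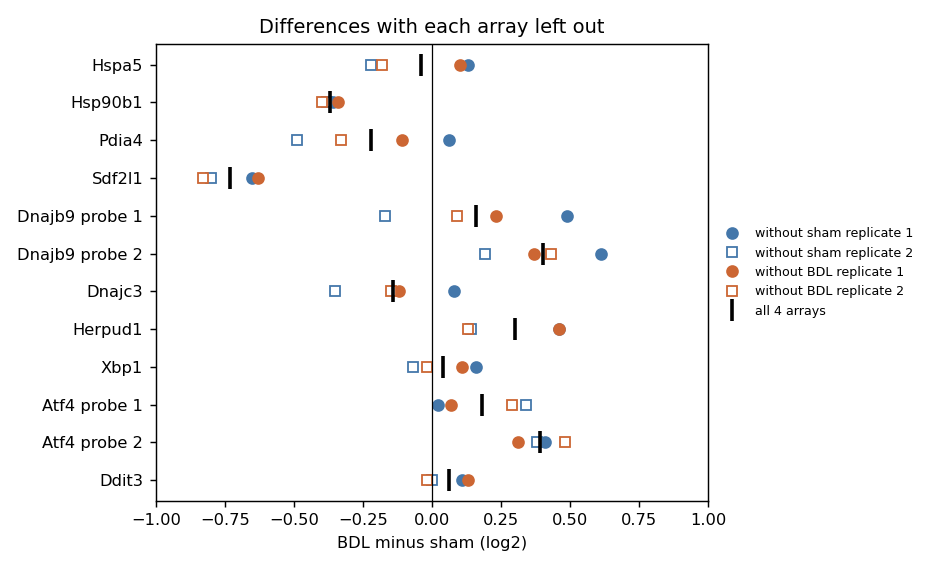
BDL minus sham (log2, x axis) for each probe with all 4 arrays (black bar) and with each array left out (points). Hsp90b1 (-0.40 to -0.34) and Sdf2l1 (-0.83 to -0.63) stay left of 0, whereas Hspa5, Pdia4, Dnajc3, Xbp1, Ddit3 and Dnajb9 probe 1 cross it.

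The rest of the pathway was read from 5 further lists, with the brightest retained probe of each gene. No gene of these lists passed over all probes. Of the UPR sensors and their proteases, all 12 were measured, 5 above and 7 below 0, with a median of -0.05. Creb3l3, a membrane-bound factor processed like ATF6 and best known from liver, was -4.94 and -4.69 in sham and -2.86 and -3.14 in BDL kidneys. The groups did not overlap, but 1 of the 2 sham arrays was not well above background, so the gene was retained through the BDL arrays where it was higher. The difference of 1.81 (SE 0.23, limma adjusted p = 0.414) was 0.81 with normexp background correction, and the probe is absent where all 4 arrays had to be above background. The PERK gene Eif2ak3 differed by 0.32 (SE 0.21), the site-1 protease gene Mbtps1 by -0.26 (SE 0.20) and Creb3l1 by -0.34 (SE 0.26). The other probe of Mbtps1 gave 0.08.

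Of 27 other chaperones and foldases, 17 were below 0 and 10 above, with a median of -0.12. Pdia6, a disulfide isomerase, was 6.58 and 5.90 in sham and 5.62 and 5.48 in BDL kidneys, a difference of -0.69 (SE 0.30, limma adjusted p = 0.867). Calreticulin (Calr), the lectin chaperone, differed by -0.52 (SE 0.26), and Uggt1, which reglucosylates unfinished glycoproteins, by -0.74 (SE 0.37), both without overlap. In all 3, sham replicate 1 was the highest array. Without it Pdia6 was -0.35 and Calr -0.26, and without BDL replicate 1 Uggt1 was -0.37. The other probe of Pdia6 gave -1.0 (unadjusted limma p of 0.0274, adjusted p of 0.864), and that of Uggt1 gave -0.51. Fkbp11, a prolyl isomerase, was well above background on the BDL arrays but not on the sham arrays, so it was retained through the arrays where it was higher. With sham values raised to the lowest signal called well above background, it was at least 1.13-fold higher in BDL. This bound carries no test. The limma adjusted p of 0.864 belongs to the measured difference of 1.22 (SE 0.38), which rests on the dim sham values and was 0.27 with normexp. The list's median turned to 0.04 without sham replicate 1 and was -0.27 without sham replicate 2.

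Of 20 genes of ER-associated degradation, 14 were below 0 and 6 above, with a median of -0.06, which was 0.10 without sham replicate 1 and -0.24 without sham replicate 2. Derl3, a derlin of the retrotranslocation machinery that plasma cells express strongly, was -1.10 and -1.21 in sham and -2.35 and -1.95 in BDL kidneys, 1.99-fold lower (-1.0, SE 0.23, limma adjusted p = 0.794). The 8 plasma cell genes outside the ER lists had a summed signal of 2.40 and 1.41 in sham and 1.73 and 1.56 in BDL kidneys. Of these, 6 had a lower mean in BDL, and Sdc1 and Irf4 a higher one. In 3 of the 8 both BDL arrays were below both sham arrays, against 18.3% of all measured genes. Among them Mzb1 was -2.18 and -2.02 in sham and -3.17 and -2.71 in BDL kidneys. The others were too dim to be retained: Cd79a was above background on 1 array and Tnfrsf17 on 0. The part of plasma cells in the values of Derl3 and Sdf2l1 was not tested. Derl1 differed by -0.56 (SE 0.33), Edem1 by -0.47 (SE 0.33) and the ubiquitin-conjugating enzyme gene Ube2g2 by 0.33 (SE 0.21). Without sham replicate 1 Derl1 was -0.21 and Edem1 -0.06. The other probe of Derl1 gave -0.16, and that of Ube2g2 gave -0.22.

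Of the 28 ATF4 and CHOP targets, 26 were measured, 18 above 0 and 8 below, with a median of 0.23, the highest among the 6 lists. Mthfd2, a mitochondrial folate enzyme, was -3.30 and -3.52 in sham and -2.17 and -2.52 in BDL kidneys, 2.09-fold higher (1.06, SE 0.23, limma adjusted p = 0.794). Aldh1l2, which acts in the same folate pathway, was 1.89-fold higher (0.92, SE 0.31), and Stc2, a secreted glycoprotein induced by ER stress, 2.25-fold (1.17, SE 0.32). These 3 of the 26 were the members of the list with an unadjusted limma p under 0.05, all higher in BDL. Among all genes the same held for 5.71% in either direction and for 434 of 15023 higher in BDL. With normexp they were 0.52, 0.54 and 0.74 in that order, Aldh1l2 was 0.61 without sham replicate 2, and Stc2 was 0.78 without BDL replicate 1. Nupr1, a stress-induced chromatin factor, was 1.62 and 3.08 in sham and 3.74 and 3.56 in BDL kidneys (1.30, SE 0.52), and its difference was 0.57 without sham replicate 1. Nupr1 and the 3 above were named for the smallest p of the list, and all were higher in BDL. Among the 8 below 0 were Ddit4 (-0.50), Ppp1r15a (-0.26) and Trib3 (-0.04), named here after their values were seen. In 8 of the 26 the groups did not overlap with BDL higher, and in 3 with BDL lower, against 19.1% and 18.3% of all genes. Leaving out sham replicate 2 gave a list median of 0.04, and leaving out sham replicate 1 gave 0.32.

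Of 22 genes of translocation into the ER and export from it, 15 were below 0 and 7 above, with a median of -0.07, which was 0.06 without sham replicate 1 and -0.27 without sham replicate 2. By the brightest probe of each gene, the members with the smallest p were Srp68 (0.31, SE 0.21), the signal peptidase subunit gene Spcs3 (-0.27, SE 0.22), Tram1 (-0.28, SE 0.28) and Spcs2 (0.61, SE 0.61). Spcs2 was 2.08 in sham replicate 2 against 3.58 to 3.86 on the other 3 arrays, and the difference turned to -0.28 without that array; its other probe gave -0.25. Ssr1, a translocon-associated subunit named here after its values were seen, was -0.05 at its brightest probe and -0.59 and -0.49 at its other probes (unadjusted limma p of 0.0436 and 0.0738).

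**Figure D4:**
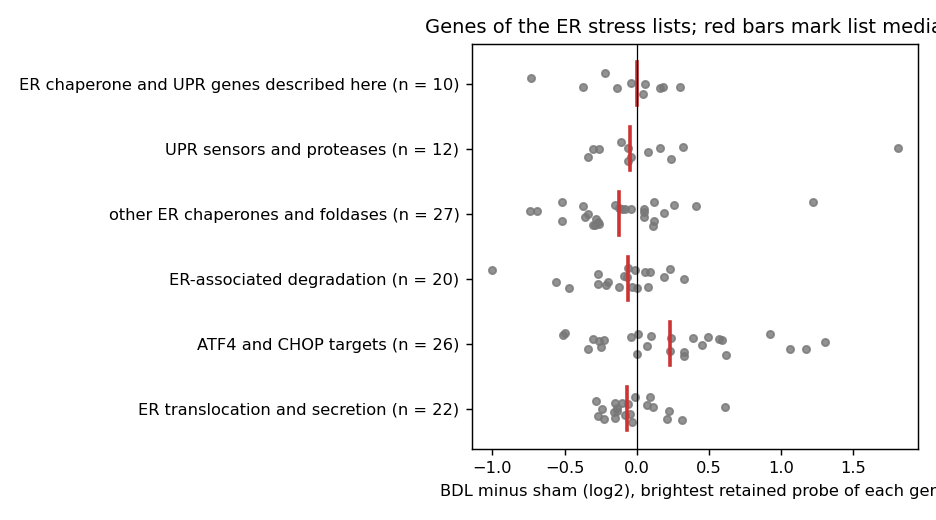
BDL minus sham (log2, x axis) for every measured gene of the 6 lists (grey points, brightest retained probe, jittered vertically), with list medians as red bars. ATF4 and CHOP targets have a median of 0.23, and the other lists lie between -0.12 and 0, close to the median of 0 over all genes.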

How the data were processed

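Kidney RNA (0.2 µg, 2 sham and 2 BDL samples, grouped by the labels) was labelled with Cy3. Per the submitters' processing notes, the scans were quantified in Agilent Feature Extraction 11.0.1.1. The deposited processed signal is a linear intensity, with background subtracted and spatial trends removed per the file headers. The authors' deposited value table holds the same intensity divided by 1 constant per array. Flagged and control spots were dropped, log2 values were set relative to each array's 75th percentile, and a probe was retained if well above background on both arrays of 1 group. Probes were named through RefSeq accessions (27229 of 55668), and coordinates belong to GRCm38.p6, not to the array's mm9. The 2 groups were compared by limma 3.58.1 (R 4.3.3), two-sided, over 32283 probes; an exact permutation test of 2 against 2 cannot go below 0.333. The fit was checked on simulated data. Precision is limited by having 2 arrays per group, and all 4 shared 1 slide and 1 scan.

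The genes and lists were chosen with earlier results of these data known. Named were every probe of the 10 genes and the 4 genes of each other list with the smallest p. Of lists with shared entries, Ero1a stands in 2 and Xbp1 and Derl3 are also plasma cell markers. Summed marker signals of macrophage, neutrophil and hepatocyte genes were 61.1 to 74.7, 108 to 146 and 10.5 to 17.6 over the 4 arrays. Higher in BDL were 3 of 8 measured macrophage genes (median difference -0.07), 7 of 8 neutrophil genes (0.87) and 1 of 8 hepatocyte genes (-0.57). The median level of the neutrophil genes was 0.75 and -0.74 in sham replicates 1 and 2, and 1.77 and 1.02 in BDL replicates 1 and 2. Sham replicate 2 was thus the low array. The brightest gene of the neutrophil sum was Csf3r, at 6.48 to 7.03. For macrophage genes the median level was 1.11 and 0 in sham replicates 1 and 2, and 0.75 and 0.92 in BDL replicates 1 and 2. Csf1r, at 4.86 to 5.40, was the brightest of their sum. Adgre1, Lyz2, C1qa, C1qb and C1qc were highest in sham replicate 1 and lowest in sham replicate 2, while Cd14 was lowest in sham replicate 1. The part of these 3 cell types in the results was not tested. Alternatives covered scaling, background, filter, probe choice, prior, pairing and single arrays. Protein sequences were not used here.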

Additional observations from a re-analysis of the deposited data

How the results depend on the processing

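With limma, 0 probes passed an adjusted p of 0.05 in the reported fit and in each of the 13 alternatives, among them the authors' deposited table and every fit without 1 array. Unadjusted, between 1056 (without BDL replicate 1) and 3854 (without sham replicate 2) probes were under 0.05. The deviations of same-numbered arrays from their group means correlated at 0.07 over the retained probes. The labels do not say whether same-numbered animals were paired, and 1 correlation from 2 arrays per group cannot settle it. With the replicate block 0 probes passed and 1964 were under an unadjusted 0.05.

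Sdf2l1 (-0.83 to -0.62), Hsp90b1 (-0.40 to -0.32), Herpud1 (0.13 to 0.46), both Atf4 probes (0.02 to 0.34 and 0.31 to 0.48) and Dnajb9 A_66_P133450 (0.19 to 0.61) kept their sign under every alternative run. Hspa5 was 0.02 with quantile normalization and Ddit3 was -0.02 with normexp. With single arrays left out, the ranges were -0.22 to 0.13 for Hspa5, -0.02 to 0.13 for Ddit3, -0.07 to 0.16 for Xbp1, -0.17 to 0.49 for Dnajb9 A_51_P198835, -0.35 to 0.08 for Dnajc3, -0.49 to 0.06 for Pdia4 and -0.28 to 1.5 for Spcs2. List medians ranged over single arrays left out from -0.12 to 0.10 for the UPR sensors, from -0.27 to 0.04 for the other chaperones and from 0.04 to 0.32 for the ATF4 and CHOP targets. The median of the UPR sensors was -0.03 with median centring and 0.08 in the authors' deposited table, which holds 9 of its 12 probes. The cause of the other shifts was not tested.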

Other observations

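ERSE, the promoter element shown above for Hspa5, Hsp90b1 and Dnajc3, lay in the windows of 37 genes with a symbol, and 20 of them were measured. This set was formed after the data were seen, and it carries no test. Of the 20, 15 were below 0 and 5 above in BDL, with a median of -0.12, where 50.3% of all genes were below 0. Besides the 3 named, 7 are folding or degradation genes of the ER lists: Derl3 (-1.0), Pdia6 (-0.69), Calr (-0.52), Ero1b (-0.52), Canx (-0.10), Syvn1 (-0.03) and Creld2 (0.19). The lowest values were those of Xlr3b (-2.98) and Xlr3a (-2.93), close copies of each other whose separate values are uncertain, and the highest was that of Acnat2 (1.49). Left out in turn, single arrays gave 12 to 16 genes below 0, the 12 without sham replicate 1.

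Sham replicate 1 was the highest array in 15 of 20 degradation genes, 15 of 22 translocation genes and 16 of 27 other chaperones, against 35.2% of all genes, and in 8 of 26 ATF4 and CHOP targets. The median gap between the sham arrays was 0.40, 0.32 and 0.46 in the first 3 lists, against 0.09, 0.18 and 0.22 between the BDL arrays, and over all genes the gaps were 0.29 and 0.21. Most of the interferon response genes were highest on the same array, and their part in these values was not tested.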
